A study of Rattus norvegicus with 6 samples.

Results

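The miR-30 family was measured in cultured rat oligodendrocyte precursors, the glial cells that give rise to myelin-forming oligodendrocytes. Its members were taken by name, as every probe named for miR-30a, miR-30b, miR-30c, miR-30d or miR-30e from either arm of its precursor. This gave 11 of the 761 rat miRNA probes on the array. The 5p probes are rno-miR-30e-5p, rno-miR-30a-5p, rno-miR-30d-5p, rno-miR-30b-5p and rno-miR-30c-5p, and the 3p probes are miR-30a-3p, miR-30b-3p, miR-30c-1-3p, miR-30c-2-3p, miR-30d-3p and miR-30e-3p. The 3 samples titled DIV3 came from precursors in Raff medium whose growth factors had been changed to let them differentiate. The 3 samples titled DIV0 were in the normal growth condition. No strain, animal age, sorting step or genetic change is named in the labels. The labels do not spell out DIV, and since every DIV3 sample is a differentiated one, time and condition cannot be told apart. Total RNA from each sample was labelled with Cy5 and measured on an array of its own, to set miRNA levels of the differentiated cells against those of cells in the normal condition. The labels name an amino allyl aRNA amplification kit for the labelling, and its part in the miRNA intensities was not tested.

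A miRNA is cut from a hairpin precursor whose 5p and 3p arms can each yield a mature strand. The bases at positions 2 to 8 of that strand, the seed, guide it to messenger RNAs, so miRNAs that share a seed share many predicted targets. The miR-30 family is found in most vertebrate tissues, brain included. Its 5p strands have been described as repressors of the autophagy gene BECN1 in human cells and of connective tissue growth factor in rat heart cells.

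The mature sequences are shown because the 5p members with a sequence here carry the same seed and differ only downstream of it. RefSeq, on assembly GRCr8, gave a sequence for 6 of the 11 members, and miR-30b-5p, miR-30b-3p, miR-30d-5p, miR-30d-3p and miR-30e-3p are named only. Capitals mark the seed in each line, written 5′ to 3′.
miR-30a-5p: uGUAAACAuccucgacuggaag
miR-30e-5p: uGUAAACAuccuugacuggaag
miR-30c-5p: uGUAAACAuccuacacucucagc
miR-384-5p: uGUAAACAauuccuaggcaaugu
miR-30a-3p: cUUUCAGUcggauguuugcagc
miR-30c-1-3p: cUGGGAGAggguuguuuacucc
miR-30c-2-3p: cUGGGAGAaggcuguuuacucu

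Of the 685 array probes with a mature sequence in RefSeq, 4 had the seed GUAAACA. They were miR-30a-5p, miR-30c-5p, miR-30e-5p and 1 probe outside the family, miR-384-5p, described from rodent hippocampal neurons. Counted from the 5′ end, miR-30a-5p and miR-30e-5p differed by a single substitution, C13U, and matched at 21 of 22 positions. The sequence of miR-30c-5p kept the first 12 bases of miR-30a-5p and differed from it at 5 of 22 aligned positions, by C13A, G14C, G18C, G19U and A20C. The first 8 bases of miR-384-5p were those of miR-30a-5p, and 12 of 22 aligned positions matched in all. The strands miR-30c-1-3p and miR-30c-2-3p shared the seed UGGGAGA with each other and with no other probe that has a sequence here. They differed by G9A, U12C and C22U. How far probes of such similar strands bind each other's targets on this array was not tested.

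The family comes from 6 genes in 3 clusters, and RefSeq placed no other gene wholly between the members of a cluster. Mir30a and Mir30c2 lie on chromosome 9 of GRCr8, plus strand, with hairpins at chr9:33233941-33234011 and chr9:33253682-33253765. The uncharacterised gene LOC134480562 and the pseudogene Rbx1-ps1 span Mir30c2 and not Mir30a. Mir30e and Mir30c1 lie on chromosome 5, minus strand, with 2906 bases between their hairpins. The hairpin of Mir30c1 is at chr5:139634455-139634543 and the mature miR-30e-5p at chr5:139637504-139637525. Both genes are within the span of Nfyc, which encodes a subunit of the CCAAT-binding factor NF-Y. Mir30b and Mir30d are neighbours within the span of the uncharacterised gene LOC102551574. The hairpins below, whose capitals mark the mature 5p strand and then the 3p strand, show that the same miR-30c-5p strand is cut from both Mir30c1 and Mir30c2, so its probe cannot tell these 2 clusters apart.
Mir30a: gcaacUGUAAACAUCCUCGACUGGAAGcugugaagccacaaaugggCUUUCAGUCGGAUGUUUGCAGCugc
Mir30c1: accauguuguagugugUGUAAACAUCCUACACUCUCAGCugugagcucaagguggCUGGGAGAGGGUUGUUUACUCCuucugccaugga
Mir30c2: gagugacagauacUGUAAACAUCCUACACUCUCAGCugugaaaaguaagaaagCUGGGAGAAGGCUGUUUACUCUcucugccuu

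Before the values of the family, 3 features of the arrays bear on them. Over the mean of the blank spots, the median miRNA spot had 27.9 to 44.7 intensity units on the DIV3 arrays and 5.87 to 37.7 units on the DIV0 arrays, where the lowest value is that of replicate 3. On that dim array the spot of miR-30e-5p stood 88.0 units above the blanks, against 432 and 448 units on the other DIV0 arrays. Levels below are log2 spot intensities after correction against the blank spots, with 50 units added, and after quantile normalization, which gives every array the same set of values. The added units make the changes of dim probes look smaller than they are. A list of 5 miRNAs known to accumulate in differentiating oligodendrocytes came from the miR-219a, miR-338 and miR-138 precursors. All 5 were higher in DIV3 at a limma adjusted p under 0.05, which 2.01% of all tested miRNAs passed in either direction. The list was chosen with earlier results of these data known. Other strands of these precursors were not on it and did not pass. Their log2 changes were 0.21 for miR-138-1-3p, -0.26 for miR-138-2-3p and -0.13 for miR-219a-1-3p. The summed intensity of the 5 listed miRNAs was 3339 to 4414 units on the DIV3 arrays and 277 to 903 units on the DIV0 arrays. This and the sums of the lists that follow are normalized values with the 50 added units taken off. They are not on the scale of the units over the blanks given above. Markers of other cells were measured too, with 0 of 4 neuronal, 0 of 5 microglia and blood, 0 of 2 endothelial, 0 of 5 mural and fibroblast and 0 of 3 muscle miRNAs past the threshold. Summed levels of the neuronal list were 373 to 501 units in DIV3 and 465 to 565 units in DIV0, and those of the microglia and blood list 215 to 441 and 264 to 621 units. The mural and fibroblast list summed to 235 to 543 units in DIV3 and 276 to 580 units in DIV0, the muscle list to 62.5 to 90.3 and 67.0 to 152 units, and the endothelial list to 21.7 to 32.3 and 14.8 to 28.8 units, with neither of its probes detected on all 6 arrays. The part of such cells in the levels of the family was not tested. In these whole-culture samples a different mix of cells and a different level per cell cannot be told apart.

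None of the 11 members passed a limma adjusted p of 0.05 between DIV3 and DIV0, where 14 of all 695 tested miRNAs did, or 2.01%. All 5 of the 5p members had log2 changes above 0, between 0.09 and 0.32, and so did 5 of the 6 3p members, between 0.01 and 0.13, the exception being miR-30c-2-3p at -0.01. Over all tested miRNAs 46.6% had a change above 0, and the median change was -0.0060. An unadjusted limma p under 0.05 was reached by 2 members, miR-30e-5p and miR-30a-5p, against 14.7% of all tested miRNAs. The same 2 were the members whose DIV3 and DIV0 values did not overlap, which held for 18.8% of all tested miRNAs. The median change was 0.12 for the 5p members and 0.03 for the 3p members. These counts over the members are descriptions, and the p-value of miR-30a-5p rests partly on DIV0 values that the normalization made nearly equal.

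Among the 5p strands, miR-30e-5p had the largest change. Its log2 levels were 9.04, 9.01 and 9.09 on the DIV3 arrays of replicates 1, 2 and 3, against 8.81, 8.56 and 8.82 on the DIV0 arrays. All DIV3 values lay above all DIV0 values, and the DIV3 array was the higher one in 3 of 3 pairs of equal replicate number. The means were 9.05 ± 0.04 in DIV3 and 8.73 ± 0.14 in DIV0 (SD, n = 3 each), a log2 change of 0.32 ± 0.08 (SE, 95% interval 0.12 to 0.52, limma adjusted p = 0.15). On this scale it was 1.25-fold higher in DIV3. In the value table deposited by the authors it had 420, 346 and 379 intensity units in DIV3 and 356, 235 and 256 units in DIV0, so that there the groups overlapped slightly.

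The strand that differs from it by 1 base, miR-30a-5p, had log2 levels of 9.60, 9.75 and 9.73 in DIV3 and of 9.52, 9.52 and 9.52 in DIV0. Its DIV0 values are equal to 2 decimals because its spot was the 54th brightest on each of the 3 DIV0 arrays, and quantile normalization gives equal ranks equal values. Their spread therefore does not measure the spread between the DIV0 samples. The SE, interval and p-values of this probe rest partly on it and may be too small or narrow. On the DIV3 arrays it ranked 51st, 47th and 48th, above the DIV0 rank each time. The log2 change was 0.18 ± 0.06 (SE, n = 3 per group, 95% interval 0.04 to 0.32, limma adjusted p = 0.23). Deposited values were 687, 594 and 626 units in DIV3, against 579, 480 and 458 units in DIV0, again without overlap.

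The 5p strands of the b and d cluster had overlapping levels in the 2 conditions. For miR-30d-5p, the log2 levels were 9.52, 9.65 and 9.60 in DIV3 and 9.54, 9.44 and 9.51 in DIV0, with 1 DIV3 array below a DIV0 array. Its log2 change was 0.09 ± 0.06 (SE, limma adjusted p = 0.61), and 2 of 3 pairs were higher in DIV3. For miR-30b-5p the levels were 9.95, 9.81 and 10.09 in DIV3 and 9.993, 9.51 and 9.996 in DIV0, where the array of replicate 2 was the low one. Its log2 change was 0.12 ± 0.15 (SE, limma adjusted p = 0.80) and was -0.05 without that array.

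The levels of miR-30c-5p, the strand made by both Mir30c genes, were 10.42, 10.30 and 10.51 in DIV3 and 10.51, 10.23 and 10.15 in DIV0. Here the DIV0 array of replicate 1 lay beside the highest DIV3 value, and the groups overlapped. The log2 change was 0.12 ± 0.11 (SE, 95% interval -0.15 to 0.38, limma adjusted p = 0.74). Deposited values were 1252, 943 and 1015 units in DIV3 and 1209, 754 and 783 units in DIV0.

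**Figure D1:**
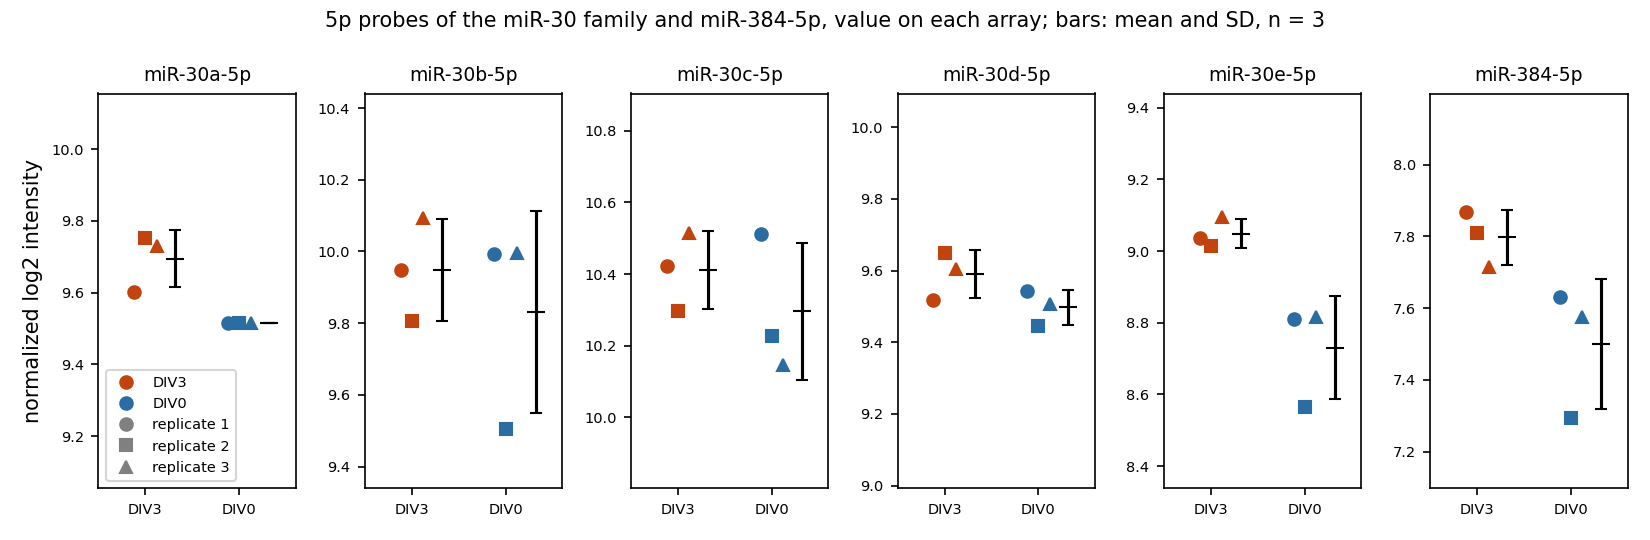
Normalized log2 intensity (y axis) of the 5 miR-30 5p probes and miR-384-5p on the 3 DIV3 arrays (red, left) and the 3 DIV0 arrays (blue, right), with symbols for the replicate number and bars for the mean and SD. Each panel spans the same range on its own scale. The groups do not overlap for miR-30a-5p, miR-30e-5p and miR-384-5p.

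Among probes with a sequence here, only miR-384-5p had the same seed outside the family. It had log2 levels of 7.87, 7.81 and 7.72 in DIV3 and 7.63, 7.29 and 7.58 in DIV0, without overlap. Its log2 change was 0.30 ± 0.10 (SE, n = 3 per group, limma adjusted p = 0.25), higher in 3 of 3 pairs, which held for 17.3% of all tested miRNAs. Deposited values were 169, 132 and 127 units in DIV3 and 118, 69 and 84 units in DIV0. The probe for its other arm, miR-384-3p, was above the detection threshold on 2 of the DIV3 arrays and on 0 of the DIV0 arrays and was not tested.

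The order of the changes among the 5p members was miR-30e-5p (0.32), miR-30a-5p (0.18), miR-30b-5p (0.12), miR-30c-5p (0.12) and, last, miR-30d-5p (0.09). Neighbours in this order differed in their change by 0.14, 0.06, 0.0016 and 0.02, and the per-array differences of these neighbours overlapped between the conditions. Of the 10 pairs of 5p members, 2 had per-array differences that did not overlap, both against miR-30d-5p. Values did not overlap for 18.8% of all tested miRNAs and for 19.6% of all arm pairs. The 10 pairs share members and are not independent. The change of miR-30e-5p exceeded that of miR-30d-5p by 0.23, and that of miR-30a-5p exceeded it by 0.09. The difference between miR-30e-5p and miR-30a-5p was 0.14, 0.22 and 0.06 in the pairs of replicates 1, 2 and 3. The spots of miR-30a-5p and miR-30d-5p adjoin on the array, as do those of miR-30b-5p and miR-30e-5p, and the part of a neighbouring spot in a value was not tested.

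The 3p probes had overlapping levels in DIV3 and DIV0, each of the 6. For miR-30e-3p the log2 levels were 7.31, 7.31 and 7.37 in DIV3 and 7.36, 7.23 and 7.36 in DIV0. Its log2 change was 0.01 ± 0.06 (SE, 95% interval -0.13 to 0.16, limma adjusted p = 0.97). For miR-30a-3p the levels were 6.93, 7.11 and 7.14 in DIV3 and 7.06, 6.97 and 7.03 in DIV0, a change of 0.04 ± 0.07 (SE, limma adjusted p = 0.86). The strands that share the seed UGGGAGA had changes of 0.13 ± 0.12 for miR-30c-1-3p and -0.01 ± 0.10 for miR-30c-2-3p (SE, limma adjusted p = 0.73 and 0.99). In the pairs of replicates 1, 2 and 3 miR-30c-1-3p had differences of 0.29, -0.23 and 0.35, and miR-30c-2-3p of -0.24, -0.08 and 0.27, opposite in sign in replicate 1 and of the same sign in the other pairs. For miR-30b-3p the change was 0.05 ± 0.06 and for miR-30d-3p 0.02 ± 0.06 (SE, limma adjusted p = 0.75 and 0.92).

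Dim spots limit what the 3p values can show. On the dim DIV0 array of replicate 3, miR-30d-3p stood 1.95, miR-30b-3p 3.79, miR-30c-2-3p 4.07 and miR-30c-1-3p 4.34 units above the blanks, and 50 units were added before the log2 was taken. The probe of miR-30d-3p was above the detection threshold on 3 DIV3 arrays and on 1 DIV0 array, and the other 10 members were above it on all arrays. That threshold, which also decided which probes were tested, was passed by 32.6% to 45.2% of the spots named No Probe on each array. For a dim probe, passing it does not by itself show expression. In the deposited values miR-30e-3p had 98, 85 and 87 units in DIV3 and 90, 65 and 70 units in DIV0, and miR-30a-3p 61, 67 and 67 against 65, 52 and 49 units.

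Set out by gene cluster, the mean log2 change was 0.14 for e and c-1, 0.08 for a and c-2 and 0.07 for b and d, with miR-30c-5p counted in the first 2. Without that shared strand they were 0.15 for e and c-1 and 0.07 for a and c-2. In the e and c-1 cluster the mean per array was 8.34, 8.22 and 8.36 in DIV3 and 8.25, 8.13 and 8.11 in DIV0, with the lowest DIV3 array below the highest DIV0 array. The a and c-2 cluster had means of 8.27, 8.35 and 8.44 in DIV3 and 8.36, 8.25 and 8.19 in DIV0, and the b and d cluster 7.86, 7.87 and 7.93 in DIV3 and 7.89, 7.69 and 7.87 in DIV0. With miR-30c-5p counted, the conditions overlapped in each of the 3 clusters. Without it, the e and c-1 means were 7.64, 7.52 and 7.65 in DIV3 and 7.49, 7.43 and 7.43 in DIV0, which did not overlap. These means include miR-30e-5p, whose own values did not overlap, as held for 18.8% of all tested miRNAs. The a and c-2 means were then 7.55, 7.69 and 7.74 in DIV3 and 7.64, 7.60 and 7.54 in DIV0, with overlap. In e and c-1 the changes ran from 0.01 for miR-30e-3p to 0.32 for miR-30e-5p, and the difference between these 2 probes did not pass its test, given with the arm pairs.

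**Figure D2:**
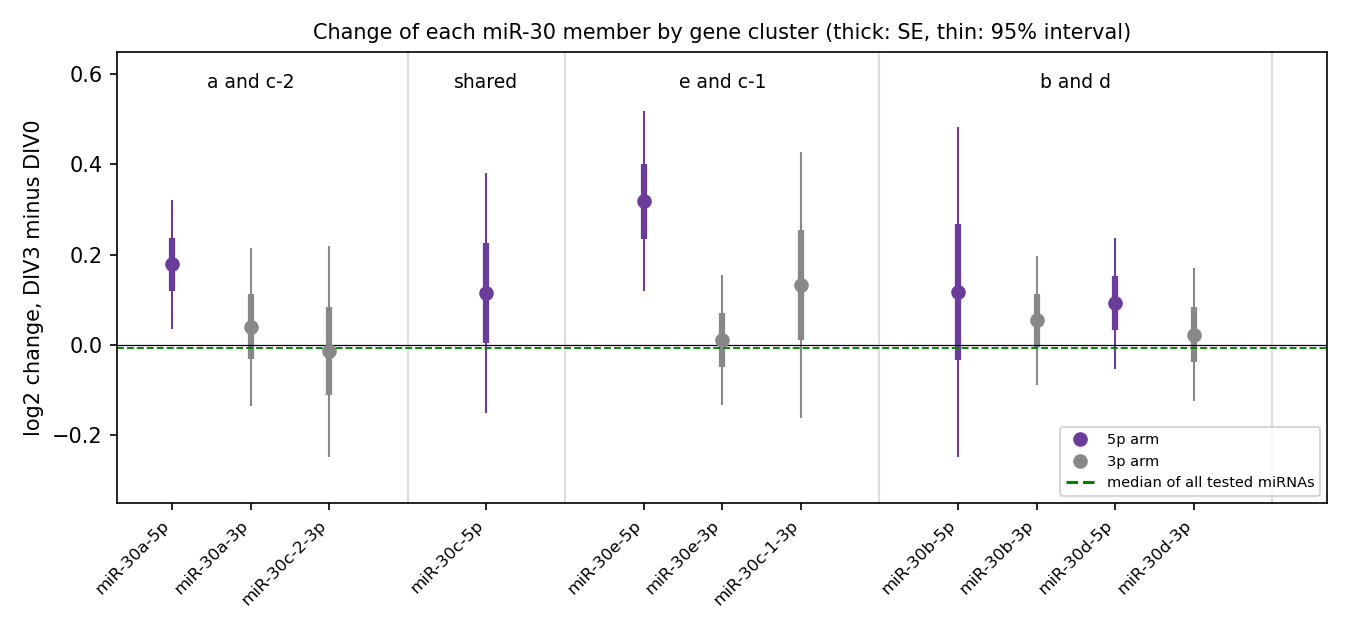
Log2 change of each miR-30 member, DIV3 minus DIV0 (y axis), by gene cluster and arm, with the SE as a thick bar and the 95% interval as a thin bar (n = 3 arrays per condition). The dashed line is the median of all tested miRNAs. The intervals of miR-30e-5p and miR-30a-5p lie above 0, none passed the adjusted threshold, and miR-30c-5p stands apart because both Mir30c genes make it. The interval of miR-30a-5p rests partly on DIV0 values that the normalization made nearly equal and may be too narrow.

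Whether the 2 arms of a precursor moved apart was tested on the log2 difference between the 3p and the 5p probe of each array, over all 271 arm pairs with both probes tested. None of the 6 pairs of the family passed a limma adjusted p of 0.05, where 6 of the 271 did, or 2.21%. At an unadjusted limma p under 0.05 there was 1 of the 6 pairs, miR-30e, against 40 of the 271, or 14.8%. The DIV3 and DIV0 values did not overlap in 3 of the 6 pairs, miR-30e, miR-30a and miR-30d, against 19.6% of all pairs. For miR-30d the nearest values were -3.5879 in DIV3 and -3.5876 in DIV0, and its 3p probe was detected on only 1 DIV0 array. With the slide as a random block miR-30e passed (limma adjusted p = 0.040), as did 20 of the 271 pairs, or 7.38%. The shift, 3p minus 5p, was below 0 in 5 of the 6 pairs of the family and in 60.9% of all pairs. The pair with the largest shift was miR-30e, with log2 differences of -1.73, -1.71 and -1.72 in DIV3 and -1.45, -1.33 and -1.45 in DIV0. These did not overlap, and the shift was -0.31 ± 0.08 (SE, n = 3 per group, limma adjusted p = 0.10). It was -0.28 on the slide of replicate 1 and -0.37 on that of replicate 2.

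For miR-30a the log2 difference of the arms was -2.67, -2.65 and -2.59 in DIV3 and -2.46, -2.55 and -2.49 in DIV0, without overlap. The shift was -0.14 ± 0.08 (SE, limma adjusted p = 0.46). Those of the other pairs were -0.13 ± 0.11 for miR-30c-2, -0.07 ± 0.08 for miR-30d, -0.06 ± 0.15 for miR-30b and 0.02 ± 0.14 for miR-30c-1 (SE, limma adjusted p = 0.60 to 0.97). The pairs of miR-30c-1 and miR-30c-2 use the same 5p probe and are not independent. The shift of miR-30e was -0.18 in the deposited values, taken as log2 of the value plus 1, and 0.13 where the background came from the area around each spot.

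**Figure D3:**
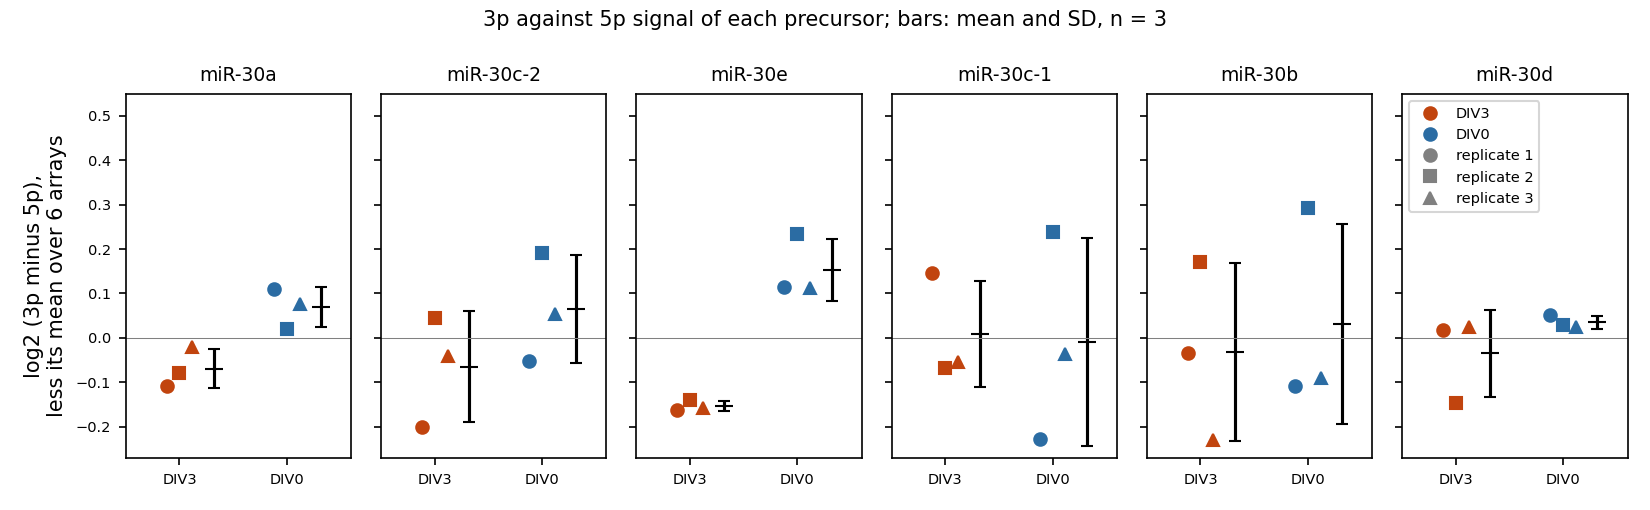
Log2 difference of the 3p and 5p probes of each miR-30 precursor, less its mean over the 6 arrays (y axis), on the DIV3 arrays (red, left) and the DIV0 arrays (blue, right), with bars for the mean and SD. The miR-30e values are tightly grouped and lie lower in DIV3, the miR-30a values are also separate, and the miR-30d values are separate by a narrow margin.

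Arrays of equal replicate number deviated together, so the fit with the replicate number as a block was set beside the others. With it, 26 of the 695 miRNAs passed, or 3.74%, and again none of the 11 members. The adjusted p of miR-30e-5p was then 0.083, that of miR-30a-5p 0.21 and that of miR-384-5p 0.15 (limma). The mean of the 5p members differed by 0.03, 0.25 and 0.21 on the log2 scale in the pairs of replicates 1, 2 and 3. The slides of replicates 1 and 2 each held 1 array of either condition, so the first 2 values are also the differences within a slide, and the value of replicate 1 was the smallest.

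The size of the family's mean change depended on the scaling. The mean change of the 5p members stood 0.17 above the median of all tested miRNAs and that of the 3p members 0.05 above it. With each array scaled to a common median after the units were added, the 5p mean stood 0.81 above that median, and it stood 0.27 above it in the deposited values. With the area around each spot as background the 5p mean was 0.12 above the median, while miR-30e-5p, miR-30c-5p and miR-30b-5p then had changes of -0.11, -0.24 and -0.47.

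**Figure D4:**
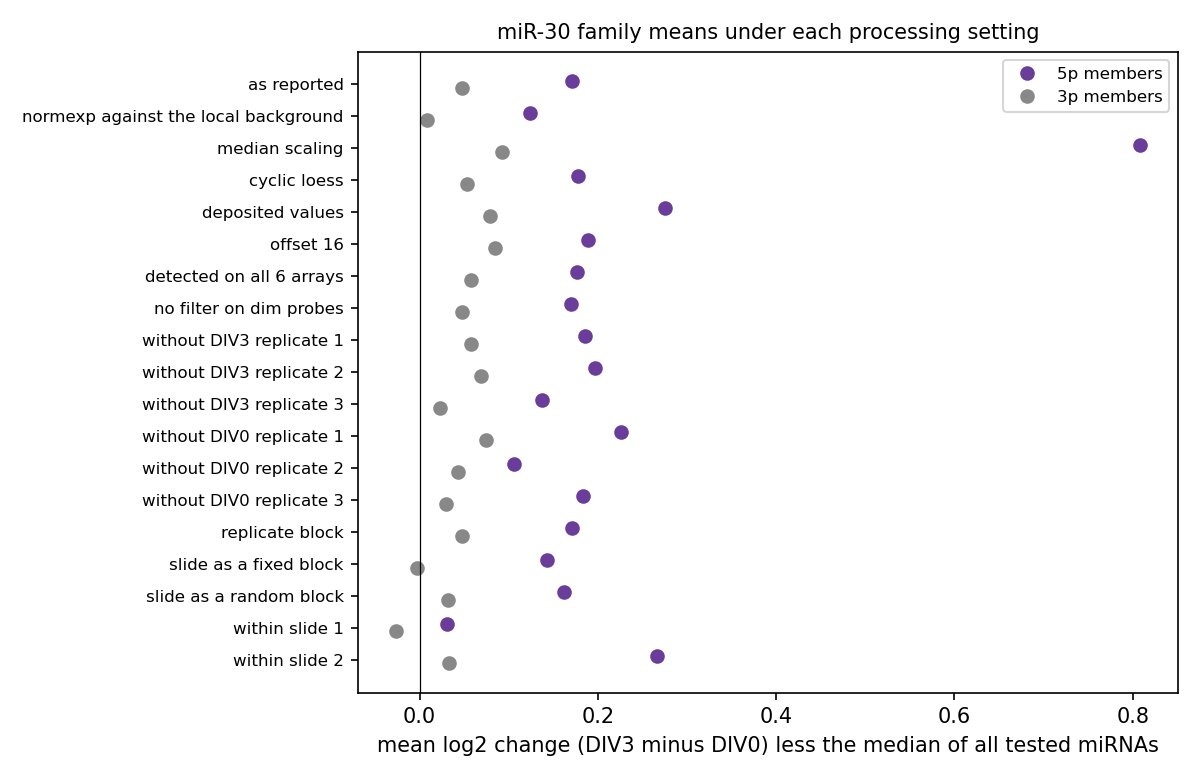
Mean log2 change (DIV3 minus DIV0) of the 5p members and of the 3p members, less the median of all tested miRNAs (x axis), under each processing setting (y axis), with no error bars. The 5p mean lies above 0 throughout, from 0.03 within slide 1 to 0.81 under median scaling, and the 3p mean lies between -0.03 and 0.09.

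The 5 miRNAs outside the family whose level followed the mean of the 5p members most closely were found by the root mean square difference of centred log2 levels over the 6 arrays. They were miR-148b-3p (0.038), miR-344a-3p (0.039), miR-135b-5p (0.042), miR-3556a (0.043) and miR-345-3p (0.055), where the median over all 683 candidates was 0.15. The closest, miR-148b-3p, had log2 levels of 6.81, 6.74 and 6.82 in DIV3 and 6.73, 6.46 and 6.58 in DIV0. Their log2 changes were 0.20, 0.10, 0.18, 0.10 and 0.17, and none passed (limma adjusted p = 0.21 to 0.63). This likeness also holds what the arrays share, such as the low values on the DIV0 array of replicate 2. Of the listed miRNAs miR-148b-3p was the brightest, and miR-3556a, with log2 levels of 5.77 to 6.02, the dimmest. By this measure a dim probe whose level varies little can also come close.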

How the data were processed

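Per the file headers, the authors' scanner files hold median spot intensity at the Cy5 wavelength, with lines relating 3 scan gains, neither background-corrected nor normalized. The authors also deposited a table of linear intensity values whose columns each have a median of 25. Their background correction is unknown, and their scaling to 1 common median is read from the values. The background was removed by normexp, with BLANK spots as negative controls (limma 3.58.1, R 4.3.3, offset 50), since the area around each spot followed the spot (correlations of log values 0.94 to 0.98). After log2, quantile normalization ran over 761 miRNA probes. A probe was detected above the trimmed blank mean plus 2 SD and tested if detected on at least 3 of 6 arrays, which left 695. DIV3 and DIV0 were compared by lmFit and eBayes, two-sided, with Benjamini-Hochberg adjustment over all tested miRNAs, and likewise over 271 arm pairs. A spot of miR-489-5p, marked by the scanner software on DIV0 replicate 1, was not used. The number of arrays limits the precision.

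Groups came from the sample titles. Both conditions carry replicate numbers 1 to 3, and deviations of equal-numbered arrays from their group means correlated at 0.37, 0.54 and 0.47. The numbers were therefore taken as pairs in the differences by replicate and in the fit with the replicate block. Other SEs, intervals and p-values come from the fit on condition alone, unless a block is named. The slides come from the names of the arrays. Nothing in the labels says that samples came from separate cultures, so the spread behind each p-value is that between these samples and may be technical. Alternatives changed the background, the scaling, the offset, the filter, the replicate or slide block, and the arrays included. The steps were tested on simulated data. Members and lists were chosen with earlier results of these data known. Named miRNAs were all members, other probes with their seed, 5 most alike in level, and cell type markers.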

Additional observations from a re-analysis of the deposited data

How the results depend on the processing

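No alternative brought any of the 11 members past the threshold. Of the 6 arm pairs, 1 passed with the slide as a random block, miR-30e (-0.31, limma adjusted p = 0.040), where 20 of all 271 pairs passed, against 6 without the block, while its adjusted p ranged from 0.040 to 0.92 over all alternatives and was 0.11 with the replicate block. The count of all miRNAs called went from 14 to 26 with the replicate block, 29 with the random slide block, 10 with cyclic loess, 6 with an offset of 16, 4 with median scaling, 1 with the local background and 0 from the deposited values or with the slide as a fixed block (57 and 87 at an unadjusted limma p under 0.05). Leaving out 1 array gave 0 to 13, with 0 without any 1 DIV3 array or without DIV0 replicate 3 (72 to 80 unadjusted).

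The mean changes above the median of all miRNAs moved by more than 1 SD in these cases. Under median scaling they were 0.81 (5p), 0.092 (3p), 0.45 (a and c-2), 0.36 (b and d) and 0.53 (e and c-1). In the deposited values they were 0.27 (5p) and 0.29 (e and c-1), and with the local background 0.17 (a and c-2) and -0.085 (e and c-1). With the slide as a fixed block, where the change rests on replicates 1 and 2 alone, they were -0.0025 (3p) and 0.0011 (a and c-2). Within slide 1 they were 0.031 (5p), -0.027 (3p), -0.092 (a and c-2) and -0.025 (b and d), and within slide 2 0.27 (5p) and 0.19 (b and d). Without 1 array the 5p mean was 0.11 to 0.23 and the 3p mean 0.023 to 0.075. The clusters a and c-2, b and d, and e and c-1 were then at 0.044 to 0.14, 0.012 to 0.12 and 0.12 to 0.20.

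Changes that turned in sign in the fitted alternatives, none of them past the threshold, were these. With the local background they were miR-30c-5p (-0.24), miR-30b-5p (-0.47), miR-30e-5p (-0.11), miR-30b-3p (-0.052), miR-30a-3p (-0.011), miR-30c-2-3p (0.096) and the arm shifts of miR-30b (0.42), miR-30c-2 (0.34) and miR-30e (0.13). With median scaling they were miR-30d-3p (-0.11), miR-30b-3p (-0.013) and the arm shift of miR-30c-1 (-0.70). In the deposited values it was miR-30d-3p (-0.31), and with a fixed slide block miR-30c-5p (-0.0096) and miR-30d-3p (-0.014). Without 1 array the changes were -0.094 to 0.048 for miR-30c-2-3p, -0.032 to 0.034 for miR-30e-3p, -0.013 to 0.053 for miR-30d-3p, -0.0012 to 0.11 for miR-30a-3p and -0.045 to 0.20 for miR-30b-5p, and the arm shifts -0.16 to 0.068 for miR-30b and -0.092 to 0.14 for miR-30c-1. The cause was not tested. The changes of miR-30a-5p (0.15 to 0.87), miR-30d-5p (0.062 to 0.74) and miR-30c-1-3p (0.025 to 0.42) kept their sign in all 16 alternatives with a fit. Within slide 1, with no test, the sign also turned for miR-30c-5p (-0.089), miR-30b-5p (-0.045), miR-30d-5p (-0.025), miR-30a-3p (-0.13), miR-30e-3p (-0.051), miR-30d-3p (-0.058) and the arm shift of miR-30b (0.074), and within slide 2 for miR-30c-1-3p (-0.23) and the arm shift of miR-30c-1 (-0.30). Signal a few units above the blanks on the DIV0 array of replicate 3 limits the 3p probes other than miR-30e-3p and miR-30a-3p. On the other arrays these limited probes stood 9.40 units (miR-30d-3p) to 51.7 units (miR-30c-1-3p) above the blanks.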
